A study of Bos taurus with 90 samples.

Results

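The 100 cumulus cell genes described here are those whose level followed the diameter of the bovine antral follicle most closely. They were chosen on the measured values themselves. In the cumulus cell (CC) libraries of 26 follicles, the count of each gene was divided by the total of its library and expressed as CPM (counts scaled to a common library total). The 8138 genes with a mean of 10 CPM or more, of 27270 in the count table, were ranked by Spearman's rho between CPM and follicle diameter, and the first 100 make up the list. The levels in CCs are therefore given as a description, and tests were made only on mural granulosa cells (MGCs) and oocytes of the same follicles, which the ranking did not use. The files list genes by Ensembl identifier alone and do not pair them with names, so the genes are called by their rank, from 1 for the highest rho, and what each one does is not stated.

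CCs are the granulosa cells that surround the oocyte. They stay coupled to it through processes that cross the zona pellucida and end in gap junctions, and through these they pass metabolites to the oocyte and receive factors that the oocyte secretes. MGCs line the follicle wall, face the theca and produce most of the follicle's estradiol, and both lineages change their expression as the antrum grows.

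The study dissected 30 follicles from ovaries of Bos taurus cows collected at a slaughterhouse, without any treatment, and made 1 library each of MGCs, CCs and the oocyte from every follicle. There were 10 small follicles of 3.1 to 3.8 mm, 10 medium follicles of 6.2 to 7.1 mm and 10 large follicles of 9.6 to 11.6 mm, and each size class came from at least 5 cows. A CC library was a pool of about 30 cells and an oocyte library a single cell, both amplified by SMART-seq2, whereas MGC libraries were made from bulk RNA. The labels do not tie follicles to cows, so follicles of 1 cow could not be grouped, and p-values measure the spread between follicles. The rule left out 4 follicles, namely the 3 that the study had removed (small follicle 8, medium follicles 7 and 10) and small follicle 7, whose CC column holds 1666212 counts for 1066 genes. This left 8 small, 8 medium and 10 large follicles. In these pools, fewer cells of a type and less RNA per cell cannot be told apart.

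Total counts of the 26 CC libraries lay between 8760201 and 40180192, and their number of detected genes between 11872 and 18588. The CC libraries of small follicles 1 (3.1 mm) and 10 (3.8 mm) stood apart. Their 10 most abundant genes took 26.3% and 21.3% of the counts, and the median of all ranked genes lay 1.41 and 0.83 below its median over the 26 libraries on the log2(CPM + 1) scale. The median ratio, order of means, rho over all classes, pair correlations, genes without overlap and list membership are given with and without both. The other CC values, among them those within the small class and those of single genes, include both. Total count, number of detected genes and the share of the 10 most abundant genes did not correlate with diameter beyond the permutation test's threshold (Pearson's r = 0.0712, 0.368 and -0.243, permutation p = 0.73, 0.0629 and 0.237, adjusted over 4 measures p = 0.73, 0.252 and 0.474, n = 26). Spearman's rho was 0.0606, 0.274 and -0.0401 (permutation p = 0.768, 0.175 and 0.846, adjusted p = 0.846, 0.637 and 0.846), and r without the 2 follicles farthest from the median diameter was 0.0385, 0.382 and -0.234. As the marker genes of oocytes could not be looked up, 376 genes with a mean above 100 CPM in oocytes and below 10 CPM in MGCs stood in for them, a choice made after the data were seen. Their summed share of CC counts was between 0.183% and 0.272% in the 26 libraries (r = 0.187, permutation p = 0.36, adjusted p = 0.48, and r = 0.0141 without the 2 farthest follicles, with rho = 0.203, permutation p = 0.319, adjusted p = 0.637, n = 26), and 1 list gene belongs to them.

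The correlation ran from 0.827 at rank 1 to 0.65 at rank 100, with a median of 0.70, and its median over all ranked genes was 0.0125. The cut fell in a dense part of the ranking, since ranks 99 and 100 had rho values of 0.650001 and 0.649658 and the first genes outside the list had 0.649316 and 0.647261. When the diameters were shuffled among the 26 libraries 100 times, the hundredth highest rho lay between 0.273 and 0.594, with a median of 0.399, and between 0 and 32 genes, with a median of 0, reached the rho of rank 100. These are the ranges of the shuffled values, and no test was made of the list.

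The mean CPM of the list genes followed the order small, medium, large in 99 of 100, and the median in 91. The ratio of the mean in large to the mean in small follicles lay between 1.73 and 9.17, with a median of 2.85, against a median of 1.08 over all ranked genes. It was above 2 in 92 genes and above 4 in 27. The step from small to medium follicles and that from medium to large were alike, with medians of 0.67 and 0.73 on the log2(CPM + 1) scale, and the first step was the larger one in 39 genes. With TMM scaling the median ratio was 2.89 and the order of means held in 96 genes. Without the CC libraries of small follicles 1 and 10, the median ratio was 2.29, the order of means held in 89 genes, and the median rho was 0.67, with a lowest value of 0.58.

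**Figure D1:**
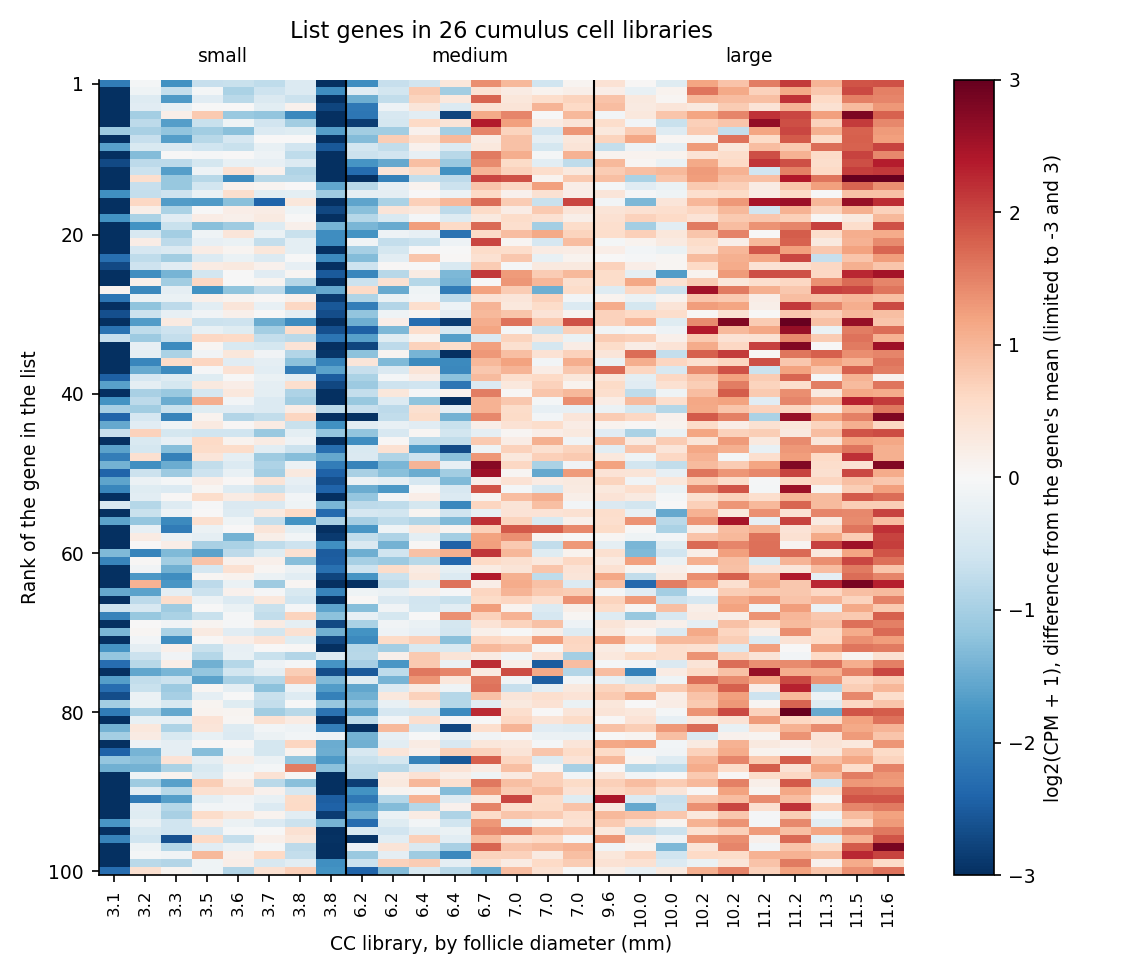
Difference of log2(CPM + 1) from the gene's mean for the 100 list genes (rows, by rank) in the 26 CC libraries (columns, by follicle diameter in mm), limited to -3 and 3, with lines between the size classes. Blue cells fill the small follicles, deepest in the libraries of 3.1 mm and the second of 3.8 mm, and red cells the follicles above 10.0 mm.

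The first gene of the list, ENSBTAG00000038990, had between 1.34 and 18.4 CPM in the CCs of small follicles, with a median of 11.4. Medium follicles had 4.62 to 52.2 CPM with a median of 16.7, and large follicles 14.7 to 85.5 CPM with a median of 42.5. The highest small follicle lay just inside the range of the large ones, so small and large follicles overlapped at their edges, and the medium ones overlapped both. Its mean went from 9.65 ± 5.83 CPM (SD, n = 8) through 22.2 ± 16.1 (SD, n = 8) to 47.5 ± 24.8 (SD, n = 10) with the size class, a ratio of large to small of 4.92.

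The second gene, ENSBTAG00000010606, spanned 0.0634 to 15.6 CPM in small follicles (median 9.78), 7.34 to 28.4 in medium follicles (median 18.0355) and 13.8 to 66.9 in large follicles (median 32.9). Here too the highest small follicle reached into the range of the large ones. Its means were 9.2 ± 5.29 CPM (SD, n = 8), 17.1 ± 6.74 (SD, n = 8) and 34.6 ± 16.9 (SD, n = 10), and the ratio of large to small was 3.76. In MGCs this gene had medians of 7.43, 6.7 and 10.3 CPM from small to large follicles, and its slope on diameter was 0.06 ± 0.05 (SE) log2 units per mm (edgeR, adjusted p = 0.611). In 24 of the 26 oocytes it had no count.

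**Figure D2:**
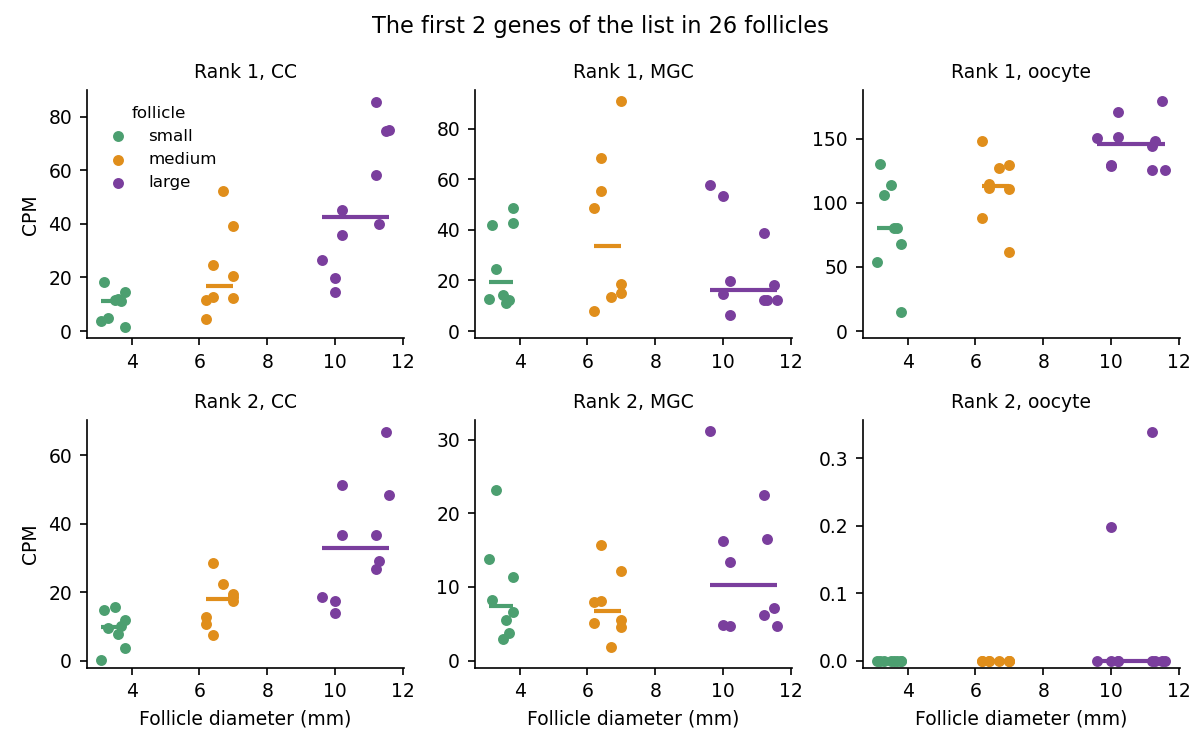
CPM of the rank 1 and rank 2 genes against follicle diameter (mm) in CCs, MGCs and oocytes of 26 follicles, each point 1 library, coloured by size class, and each line the median of a class. In CCs the points climb with diameter for both genes, in MGCs the classes lie over one another, and in oocytes rank 1 climbs from a median of 80.2 to 146 CPM whereas rank 2 is at or near 0.

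In 6 of the 100 list genes, every large follicle lay above every small follicle. Of all 8138 ranked genes, 7 or 0.0860% did so, and since rho chose the list the count is a description. These were ranks 3, 4, 8, 10, 11 and 73. Leaving out the CC libraries of small follicles 1 and 10 could only add such genes, and it added none. As these libraries had the lowest shares of the list, their removal says little about the highest small follicle, on which the overlap rests. The rank 4 gene, for example, spanned 11.1 to 132 CPM in small follicles with a median of 99.2, and 145 to 300.2 CPM in large follicles with a median of 185. For rank 73 the small follicles reached from 167 to 346 CPM (median 237) and the large ones from 353 to 955 CPM (median 524). The gap was narrow in rank 8, whose highest small follicle had 18.3 CPM and lowest large follicle 18.8, and wider in rank 3, with 11.7 and 15.6 CPM.

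The 8 largest ratios of large to small belonged to genes with low levels in small follicles, with medians between 2.37 and 9.49 CPM. Rank 31 had 0 to 11.8 CPM in small follicles (median 2.54), 0.475 to 38.4 in medium (median 14.2) and 7.21 to 89.1 in large ones (median 19.3), a ratio of means of 9.17. Rank 13 followed with a ratio of 7.76, from 0.433 to 19.7 CPM in small follicles (median 6.41) to 6.56 to 116 CPM in large ones (median 29.9). The next 6 ratios, those of ranks 16, 27, 5, 6, 49 and 59, lay between 5.26 and 6.45. In each of the 8 genes the ranges of small and large follicles overlapped.

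Rank 26, with the highest mean of the list (2161 CPM), reached from 73.7 to 2433 CPM in small follicles (median 1234), from 608 to 3965 in medium ones (median 1882) and from 2023 to 5171 in large ones (median 2571), a ratio of means of 2.68. The highest small follicle lay within the range of the large ones. Ranks 76, 84, 68, 19, 73, 28 and 87 came next in mean level, between 250.2 and 1293 CPM, with ratios between 1.91 and 4.28. CPM is not scaled by gene length, so these levels order the genes by counts and not by transcripts.

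At the edge of the list the ranges of small and large follicles overlapped. Rank 99 had medians of 7.05, 17.4 and 16 CPM in small, medium and large follicles, and rank 100 had 7.84, 4.8 and 16.4, so that its medium follicles had the lowest median. The first gene outside the list had medians of 12.7, 17.5 and 23.8 CPM, and the next one 107, 155 and 213.

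The list genes were also examined within each size class. Among the 8 medium follicles (6.2 to 7 mm in these libraries) the median rho of the list genes with diameter was 0.64, and 98 were above 0, against a median of 0.05 and 53.5% over all ranked genes. Among the 10 large follicles it was 0.61, with 97 above 0, against -0.15 and 39.9%. Among the 8 small follicles it was 0.16, with 77 above 0, against 0.08 and 64.1%. The within-class values enter the rho that chose the list, so they describe where the ordering lay: within the medium and large classes as well as between classes, and least within the small class. The small class includes follicles 1 and 10, whose libraries stood apart, and was not examined without them.

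The list genes also moved together from follicle to follicle. After the mean of each class was subtracted, pairs of list genes had a median correlation of 0.61 over the 26 libraries, and 98.7% of pairs were above 0, whereas pairs of all ranked genes had a median of 0.19. Without small follicles 1 and 10 the medians were 0.48 and 0.0634. Only class means were subtracted, so the trend with diameter within a class, described above, stays in these correlations. All these points share their libraries, and the list was chosen on them.

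Summed over the list, the share of a CC library's counts lay between 0.153% and 0.981% in small follicles (median 0.69%), between 0.487% and 1.56% in medium ones (median 1.06%) and between 0.935% and 2.42% in large ones (median 1.63%). The highest small library lay just above the lowest large one. The lowest 2 shares were those of small follicles 1 and 10, and the highest that of the largest follicle, of 11.6 mm. In MGCs the medians were 0.593%, 0.758% and 0.839%, and in oocytes 0.341%, 0.405% and 0.485%, with the ranges of small and large follicles overlapping in both.

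**Figure D3:**
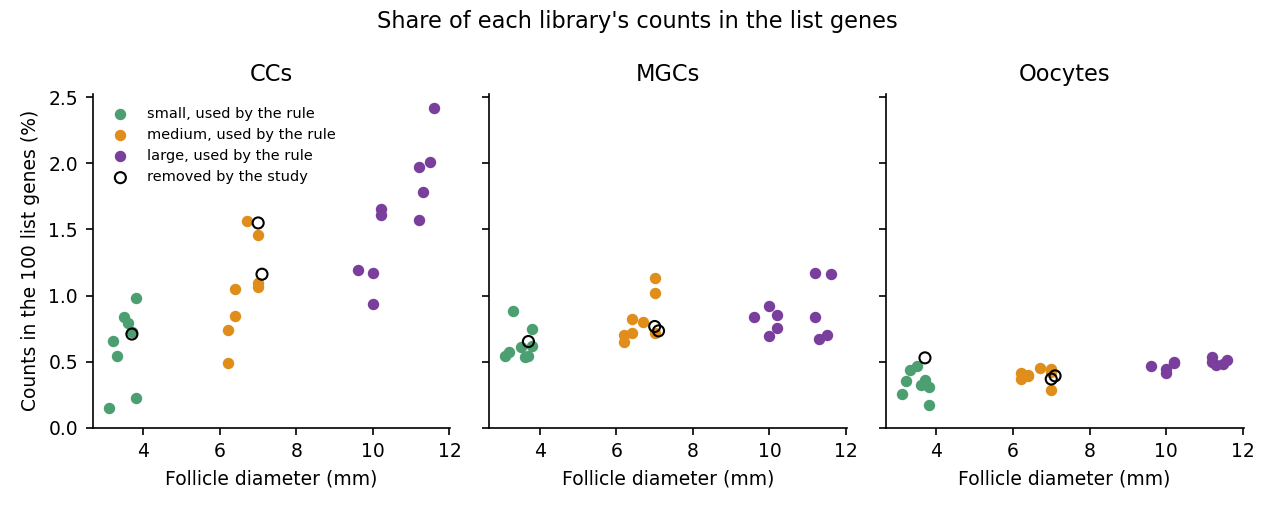
Share of counts (%) in the 100 list genes against follicle diameter (mm) in CCs, MGCs and oocytes, each point 1 library, filled for the 26 follicles used by the rule and open for the 3 that the study removed. The CC share runs from 0.153% at 3.1 mm to 2.42% at 11.6 mm, on which the list was chosen, while the MGC and oocyte shares stay between 0.174% and 1.17%.

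The 3 CC libraries of the follicles removed by the study were not used to choose the list. Small follicle 8 (3.7 mm) had 70 list genes above the median of the small follicles, 38 above that of the medium and 6 above that of the large ones (58.3%, 58% and 56.6% of all ranked genes). Its library had 23838 detected genes from 13558016 counts, where the 26 libraries used had 11872 to 18588. Medium follicle 7 (7 mm) had all 100 above the small median, 95 above the medium and 73 above the large one (51.9%, 52.7% and 50.9% of all ranked genes), and 88 lay nearest to the large median. Medium follicle 10 (7.1 mm) had 55 above the small median, 32 above the medium and 7 above the large one (45.8%, 44% and 43.8% of all ranked genes), and 54 lay nearest to the small median. By these counts of genes the pair of medium follicles fell on opposite sides of their class, although their diameters differed by the last decimal. By the summed share of the list they did not. Medium follicle 7 had 1.55% and medium follicle 10 had 1.16%, both above the median of the medium class (1.06%). No test of diameter was made over these 3 libraries, and the nearest class was not counted over all ranked genes.

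The list genes were not particular to CCs. The mean CPM was highest in CCs for 46, in MGCs for 30 and in oocytes for 24, where the shares over all ranked genes were 31.1%, 33% and 35.9%. CPM compares these cell types only roughly, because MGC libraries were prepared by another method. In MGCs 95 of the list genes and in oocytes 83 had a mean above 1 CPM and could be tested. The 46 genes highest in CCs had a median ratio of large to small in CCs of 2.83, the 30 highest in MGCs 3.1 and the 24 highest in oocytes 2.49.

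In MGCs the list genes lay close to all genes in rank correlation with diameter, and somewhat above them in slope. Spearman's rho of the list genes in MGCs lay between -0.55 and 0.57 with a median of 0.03, and 54 of 100 were above 0, against a median of -0.00342 and 49.4% over all ranked genes. None of the 100 reached the rho of rank 100 there. Only 88 of the 8138 ranked genes did, so a count of 0 in 100 tells little. In edgeR's quasi-likelihood test of a slope on diameter, adjusted by Benjamini-Hochberg over 13152 genes, 5 of 95 list genes rose and 2 fell. These 13152 genes are a wider set than the 8138 ranked genes, since no floor in CCs was applied to them. Shares over the ranked genes alone were not computed for the fit. Of all genes tested, 3.34% rose and 3.95% fell, and the list's 5.26% and 2.11% are near these. At an unadjusted p under 0.05, 16 of the 95 rose and 8 fell, where 1248 and 1475 of the 13152 genes did. The list's share at that threshold was therefore above that of all genes for rises and below it for falls. No list gene had every large follicle above every small one in MGCs, against 0.129% of the genes tested, a share so small that a count of 0 tells little. The median slope was 0.01 log2 units per mm over the list and -0.00265 over all genes tested.

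The 5 list genes that rose in MGCs were ranks 9, 12, 15, 26 and 69. Rank 26, the most abundant list gene in CCs, had 116 to 426 CPM in the MGCs of small follicles (median 242), 128 to 2648 in medium (median 463) and 129 to 4415 in large ones (median 809). The lowest values were alike in all classes and the highest grew, so the ranges overlapped throughout. Its slope was 0.37 ± 0.10 (SE) log2 units per mm (edgeR, adjusted p = 0.0166), and it lost significance without large follicle 10 (adjusted p = 0.0614). In rank 9 the medians were 28.3, 51.3 and 67.7 CPM, within 22.6 to 44, 22.7 to 125 and 28.5 to 123 CPM, with a slope of 0.15 ± 0.04 (adjusted p = 0.0364 from edgeR). The call of rank 9 was lost without any 1 of small follicles 1, 3, 4, 5, 6 and 10 and large follicles 3, 6, 7 and 10 (adjusted p between 0.0504 and 0.0786, edgeR). Ranks 12, 15 and 69 had slopes of 0.10, 0.06 and 0.08 (edgeR, adjusted p = 0.0162, 0.0352 and 0.0252), and the ranges of their small and large follicles overlapped. Leaving out 1 follicle ended the call of rank 15 for small follicles 4, 5, 6 and 10 and large follicles 4, 6, 7 and 8 (adjusted p between 0.054 and 0.0869 by edgeR), and that of rank 69 for small follicle 2 (0.0518) and large follicle 6 (0.0556).

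The 2 list genes that fell in MGCs, ranks 11 and 50, went the opposite way to CCs. Rank 50 had 9.45 to 76.8 CPM in the MGCs of small follicles (median 27.7), 3.94 to 52.6 in medium (median 21.3) and 4.47 to 26 in large ones (median 10.5), while in CCs its medians were 7.15, 6.19 and 32.8 CPM. Its MGC slope was -0.23 ± 0.05 (SE) log2 units per mm (edgeR, adjusted p = 0.00871). In rank 11 the MGC range was 1.36 to 23.4 CPM in small follicles (median 7.06) and 1.58 to 5.69 in large ones (median 4.12), a slope of -0.18 ± 0.05 (edgeR, adjusted p = 0.0218), and in CCs it was one of the genes without overlap, from a median of 12.2 to one of 42.3 CPM. The fall of rank 11 lost significance without small follicle 2 (adjusted p = 0.101) or small follicle 3 (0.0529). With the 10 follicles classed as healthy in the study, none of these 7 calls in MGCs passed (edgeR, adjusted p between 0.0596 and 0.752), the slope of rank 69 going from 0.08 to 0.02 and that of rank 50 from -0.23 to -0.14. With the 3-digit prefix of each follicle identifier held fixed, ranks 9, 11 and 15 did not pass (edgeR, adjusted p = 0.143, 0.0902 and 0.0715). Rank 15 was also lost with log2 of the diameter (0.059) and rank 12 with large against small follicles (0.0543). The difference in slope between CCs and MGCs was not tested, because the CC values chose the genes.

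**Figure D4:**
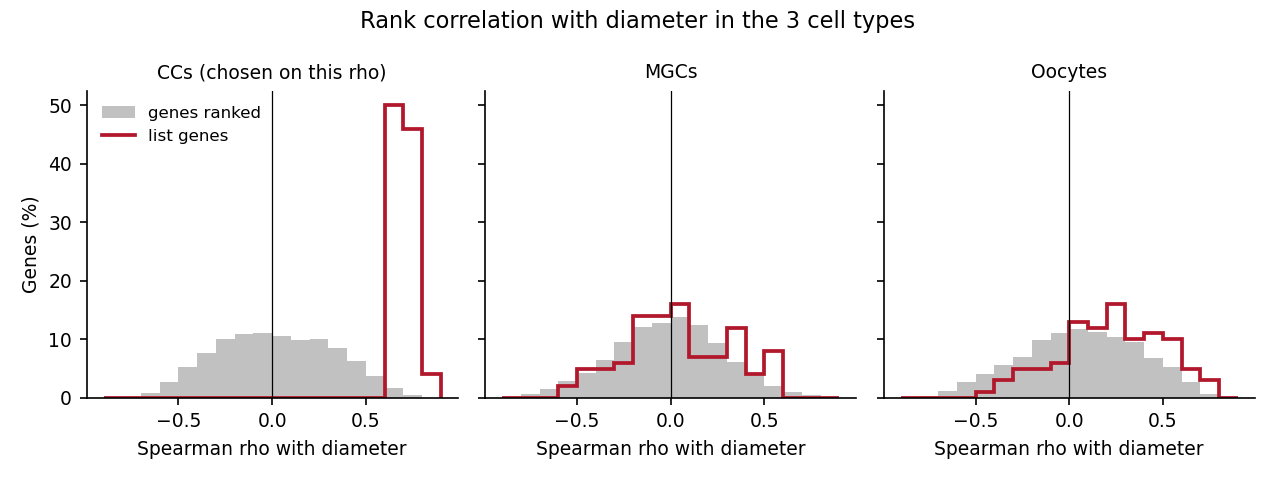
Percentage of genes by Spearman's rho between CPM and follicle diameter (bins of 0.1) in CCs, MGCs and oocytes, for all ranked genes (grey) and the list genes (red line). In CCs the list lies at the right edge because it was chosen there. In MGCs it lies over the grey, with a median of 0.03 against -0.00342, and in oocytes it lies to the right of it, with a median of 0.24 against 0.0729.

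In oocytes the list genes lay higher in the ranking than all genes did. Their rho was between -0.42 and 0.76 with a median of 0.24, and 80 of 100 were above 0, against a median of 0.0729 and 58.4% over all ranked genes. The rho of rank 100 in CCs was reached by 3 list genes in oocytes and by 142 of the 8128 ranked genes with a rho there. The 100 include genes with almost no count in oocytes, such as rank 2, whose rho was 0.27 with no count in 24 of 26. In the fit on counts, 64 of 83 list genes had a slope above 0, against 51.4% of the 13235 genes tested. The genes tested are a wider set than the ranked genes, from which the list was drawn. Slopes and calls over the ranked genes alone were not computed, so the excess of the list over them is not known. The median slope was 0.06 log2 units per mm against 0.00279 over the genes tested. These genes share 26 oocytes and are not independent of each other, so the shift is given without a test. By cell type, rho in oocytes was above 0 in 22 of the 24 list genes highest in oocytes, 35 of the 46 highest in CCs and 23 of the 30 highest in MGCs. The shares over all ranked genes of each kind were not computed.

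Some oocyte libraries held fewer genes than the rest. The 26 oocytes had between 10588 and 16641 detected genes, and the 4 lowest were those of small follicles 2, 9 and 10 (13037, 10588 and 12026 genes) and large follicle 9 (11861). A count was found for 76, 67, 72 and 69 list genes in them. Without the 3 small follicles, 73 of 100 list genes had a rho above 0 in oocytes, with a median of 0.18, against 52.1% and 0.0193 over all ranked genes. Without all 4, it was 77, with a median of 0.22, against 54.3% and 0.0362. These sets were chosen after the data were seen, and the part of library quality in the shift was not tested.

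By edgeR's quasi-likelihood test, 5 of the 83 list genes tested in oocytes rose with diameter, or 6.02%, where 2.58% of all genes did. None fell, where 3.23% of all genes did. At an unadjusted p under 0.05 the counts were 20 and 1, where 9.44% and 10.0% of all genes rose and fell, and with DESeq2 12 and 0, where 5.19% and 5.14% did. Without the oocytes of small follicles 2, 9 and 10, 5 of 84 list genes rose and none fell by edgeR (21 and 0 at an unadjusted p), where 1.26% and 1.04% of all genes did. Without large follicle 9 as well, 3 rose and none fell (19 and 1 at an unadjusted p), against 1.15% and 0.853%. No list gene had every large oocyte above every small one, against 0.212% of the genes tested, a share so small that a count of 0 tells little.

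The genes that rose in oocytes were ranks 1, 6, 64, 84 and 96. Rank 6, which is higher in oocytes than in the other cells, had 97.5 to 463 CPM in small follicles (median 305), 242 to 553 in medium (median 412) and 395 to 654 in large ones (median 552). Only the upper end of the small class reached into the large one. Its slope was 0.11 ± 0.03 (SE) log2 units per mm (edgeR, adjusted p = 0.0112), while in MGCs it was 0.06 (adjusted p = 0.611). Rank 64 had medians of 113, 181 and 261 CPM within 74.2 to 219, 121 to 235 and 177 to 315 CPM, with the smallest adjusted p of the list in oocytes (0.0061 by edgeR, slope 0.12 ± 0.02). Ranks 84 and 96 had slopes of 0.13 ± 0.03 and 0.17 ± 0.04 (edgeR, adjusted p = 0.0104 and 0.00826), from small medians of 73.4 and 57.8 CPM to large medians of 167 and 150.2. Without small follicles 2, 9 and 10 the call of rank 84 was lost (edgeR, adjusted p = 0.0577), and without large follicle 9 as well those of ranks 1, 6 and 84 (0.0553, 0.0509 and 0.0732).

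Rank 1, ENSBTAG00000038990, spanned 14.9 to 130 CPM in the oocytes of small follicles (median 80.2), 62 to 148 in medium (median 113) and 126 to 179 in large ones (median 146). The small and large classes met at their edges, and the medium class overlapped both. Its slope was 0.10 ± 0.03 (SE) log2 units per mm, at the threshold (edgeR, adjusted p = 0.0487), and the adjusted p lay between 0.029 and 0.114 when each follicle in turn was left out, passing in 8 of 26 cases (without small follicle 2, 3, 4 or 10, medium follicle 1, 3 or 6, or large follicle 6). In MGCs the same gene had medians of 19.3, 33.6 and 16.3 CPM and a slope of -0.05 ± 0.07 (adjusted p = 0.758 by edgeR).

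The calls in oocytes depended on which follicles entered and on the prefix of the follicle identifier, its first 3 digits, of which the 30 follicles had 11. Some prefixes occurred in a single size class, so the covariate takes up part of the difference in diameter. With 11 prefixes over 26 follicles, a loss of calls to the prefix and a loss of contrast in diameter cannot be told apart. With the prefix as a covariate, no list gene and no other gene passed in oocytes by edgeR. At an unadjusted p under 0.05, 10 list genes rose and none fell, against 2.10% and 2.48% of all genes. The 5 genes called above kept slopes above 0 in this fit, between 0.08 and 0.11 log2 units per mm. In MGCs the same covariate gave 12 rising and 8 falling list genes, while the calls over all genes grew to 8.76% and 7.24%. With all 30 follicles no gene passed in oocytes by edgeR, and the list counts at an unadjusted p were 6 and 0, against 2.78% and 3.24% of all genes. Among the oocytes added there, those of medium follicles 7 and 10 had 6770 and 9524 detected genes, where the 26 had 10588 or more. Those of small follicles 7 and 8 had 15774 and 14567. With small follicle 7 alone added, 4 list genes rose and 0 fell by edgeR, where 147 and 263 of 13248 genes did. The part of library quality in this was not tested. With the 10 follicles classed as healthy in the study, no list gene passed in oocytes by edgeR, where 0.0150% of all genes rose, and at an unadjusted p 15 rose and 1 fell, against 6.69% and 5.04%. In MGCs of these follicles 2 list genes rose and 1 fell, below the 6.00% and 5.03% of all genes.

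**Figure D5:**
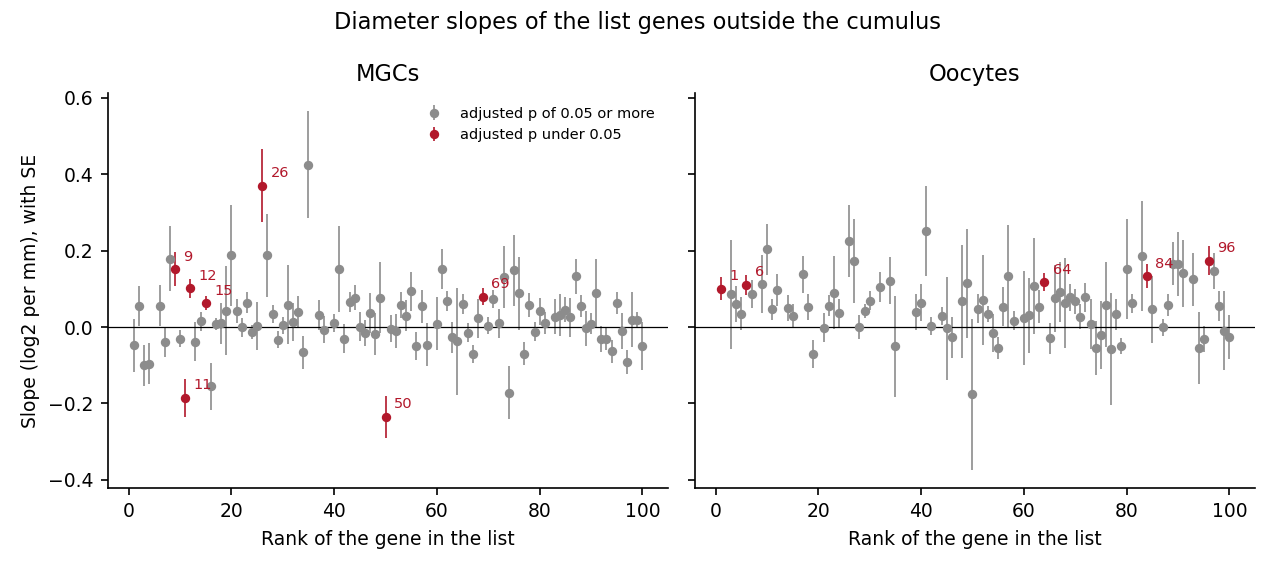
Slope on follicle diameter (log2 units per mm, with SE) of the list genes tested in MGCs (95) and in oocytes (83), by rank, with genes at an adjusted p under 0.05 in red and numbered. In MGCs the red points lie on both sides of 0, 5 above and 2 below. In oocytes all 5 lie above 0, between 0.10 and 0.17.

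The slopes in oocytes and MGCs were compared in 1 fit with an interaction of cell type and diameter, over 10866 genes with a mean above 1 CPM in both. Of 81 list genes, 3 had a higher slope in oocytes and none a lower one by edgeR, where 3.23% and 3.60% of all genes did. At an unadjusted p under 0.05 the counts were 11 and 4, where 10.6% and 10.2% of all genes were higher and lower. The 3 genes were ranks 10, 11 and 97, with differences of 0.23 ± 0.07, 0.23 ± 0.06 and 0.24 ± 0.06 (SE) log2 units per mm (edgeR, adjusted p = 0.0298, 0.00838 and 0.00693).

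Rank 97 had medians of 12.3, 20.2 and 29.9 CPM in oocytes and of 175, 189 and 107 CPM in MGCs from small to large follicles, with overlapping ranges in both. Rank 10 had medians of 6.3, 13.7 and 23.7 CPM in oocytes and of 44.1, 35.8 and 32.2 CPM in MGCs, and in CCs, where it was among the genes without overlap, of 17.3, 21.1 and 35. With the follicle as a block, which pairs the oocyte and MGCs of 1 follicle, rank 97 kept its call (adjusted p = 0.00948), ranks 10 and 11 lost theirs (adjusted p = 0.0623 and 0.105), and rank 96 gained one (0.0322, against 0.0665 without the block, all by edgeR). For ranks 10 and 97 neither slope alone passed the test in MGCs or in oocytes.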

How the data were processed

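RNA-seq was available for MGCs, CCs and oocytes of 30 follicles, 90 columns in all, and every column was used. The deposited values are counts of reads per gene without normalization, which the authors made by counting uniquely aligned reads over exons with featureCounts on ARS-UCD1.2. The labels name HISAT2 2.2.1 as the aligner and the methods another one, and which made the counts was not settled. Libraries were amplified without molecular identifiers, so counting intervals would cover counting error only and none are given. Strand was not used in counting as far as the sources say, so overlapping genes cannot be told apart.

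The members and lists were chosen with earlier results of these data known. CPM were computed from column totals, and no table used here pairs identifiers with symbols (0 of 27270 matched), so planned results on functional lists, cell type markers and promoters, and the CC fit for those lists, were not run. The rule named the 12 highest rho, the 8 largest ratios, the 8 highest means, the genes called in MGCs or oocytes and those at the edge of the list. At most 2 identifiers are printed, and the other genes are given by rank. Rank 97, which falls outside this rule, was named after its values were seen.

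Slopes on diameter in mm were fitted with edgeR 4.0.16 in R 4.3.3 (TMM, glmQLFit, glmQLFTest, genes with a mean CPM above 1, Benjamini-Hochberg adjustment, calls at an adjusted p under 0.05), with DESeq2 1.42.0 as an alternative. In the fits, shares of all genes are over the genes tested, without the floor of 10 CPM in CCs that the list had. The fits were tested on simulated data. Correlations used 100000 permutations, two-sided, and log2 values a pseudocount of 1 (Python 3.11.15, numpy 2.4.6, scipy 1.17.1, pandas 2.3.3; plots by matplotlib 3.10.9). Oocyte and MGCs are paired because they come from the same follicle. Their deviations from the class means correlated with r between -0.18 and 0.17 over 26 follicles, above 0.1 in 3.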

Additional observations from a re-analysis of the deposited data

Results flagged for a closer look

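Of the 51 groups of 8 or 10 libraries examined, each the values of 1 reported quantity in 1 size class, 3 held a library with a wide gap to the rest, where chance gives about 1 in 20. All were in MGCs. Rank 9 had 125 CPM in medium follicle 8 against 22.7 to 68.5 in the other medium follicles. Rank 12 had 48.6 CPM in medium follicle 1 against 24 to 32.1. Rank 50 had 26 CPM in large follicle 1 against 4.47 to 15.8. The slopes of these 3 genes kept their sign without any 1 follicle.

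The slopes of ranks 10, 11 and 97 differed between oocytes and MGCs by 0.234, 0.231 and 0.236 log2 units per mm in the interaction test of edgeR, and 1 of the 3 calls held with the follicle as a block.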

How the results depend on the processing

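Of the 100 list genes, 68 to 96 stayed in the list with TMM or DESeq2 size factors, a floor of 1 CPM, Pearson's r of log2 values, 27 or 29 follicles, or the number of detected genes held fixed, and 90 without small follicles 1 and 10 (added after seeing the data). Fewer stayed with a floor of 50 CPM (35, the number above that floor), the 10 healthy follicles (43), the identifier prefix held fixed (40), small and medium follicles (16) or medium and large follicles (23). Leaving out 1 follicle kept 66 to 96, lowest without large follicle 6.

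Rising list genes in MGCs, 5 in the fit reported, numbered 16 at an unadjusted p, 9 with DESeq2, 27 or 30 follicles, 2 with the healthy follicles, 12 with the prefix and 2 to 7 leaving out 1 follicle (2 without large follicle 6, 3 without small follicle 4, 5, 6 or 10). Falling ones, 2 as reported, numbered 8, 4 with DESeq2, 1 with the healthy follicles, 8 with the prefix and 1 to 3 leaving out 1 follicle (1 without small follicle 2 or 3). The list's rising share in MGCs was above that of all genes at an unadjusted p, with DESeq2 and with 27 or 30 follicles. It was also above with the prefix, and below with the healthy follicles. The list's falling share was below that of all genes in each of these settings except the prefix. In oocytes the rising ones, 5 as reported, numbered 20 at an unadjusted p, 12 with DESeq2, 8 with no filter, 0 with 30 follicles, the healthy follicles or the prefix, 3 without the 4 oocytes with the fewest genes (added after seeing the data), and 4 to 8 leaving out 1 follicle (8 without small follicle 3). Falling ones, 0 as reported, were 1 at an unadjusted p or with no filter and 0 leaving out any follicle. The cause of these differences was not tested.

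The interaction calls of 3 and 0 became 2 and 0 with the follicle as a replicate block, and 11 and 4 at an unadjusted p. Spearman's rho of the oocyte-abundant share with diameter went from 0.203 to -0.000436 without the 2 farthest follicles. None of the 12 slopes called in MGCs or oocytes changed sign under any alternative. List genes with a mean of 1 CPM or less in MGCs or oocytes were not tested at this depth.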
